A study of Mus musculus with 18 samples.

Results

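Type I interferon stimulated genes are genes that cells switch on once interferon-α or interferon-β has bound its receptor, and most of their products hinder the growth of viruses. A set of 42 such mouse genes was followed in eosinophils. The rule listed them by symbol and held no measured value, but the list was made with earlier results of these data known. Their Ensembl identifiers were looked up in the GRCm38 annotation, and all 42 were found among the 55029 genes of the count files for *E. coli* and IFN-γ and among the 54232 genes of the files for IL-4. All 42 also had enough counts to be tested in both sets of files, which left 9883 and 10556 genes in all.

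Type I interferons act through a receptor of the chains IFNAR1 and IFNAR2, which carry the kinases JAK1 and TYK2. Transcription factors activated by them, among them STAT2 with IRF9, bind a DNA motif called the interferon-stimulated response element. IFN-γ, the type II interferon, has a receptor of its own and acts mainly through another motif, the gamma-activated site, although the targets of both kinds of interferon overlap. Bacterial lipopolysaccharide, sensed by TLR4, can also set off the production of interferon-β in many myeloid cells.

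The eosinophils came from C57BL/6 mice of the NJ.1638 line, whose *Il5* transgene is known to be expressed in T cells and raises eosinophil numbers, so stimulated and unstimulated cells carried it alike. They were washed from the peritoneal cavity and purified by removing, with beads, cells carrying Thy1.2 or B220. The study's paper states that purity was checked by flow cytometry before use and that the remaining other cells were mostly lymphocytes. There were 3 libraries in each of 6 groups: cells with heat-inactivated *E. coli*, with IFN-γ at 50 ng/ml, with both of these, with IL-4 at 100 ng/ml, and 2 unstimulated groups. The study's paper gives 18 h of culture for the stimulated cells and states no time for the unstimulated ones. Unstimulated libraries a to c belong to the file set of *E. coli* and IFN-γ, and unstimulated libraries d to f to that of IL-4. The age and sex of the mice are not given in the sources used here. The study's paper calls the libraries of a group biological replicates without saying whether each came from its own animal, so the p-values below measure the spread between these libraries.

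Library totals on genes ran from 1523808 to 2734041 counts in the set of *E. coli* and IFN-γ and from 3625036 to 6482289 in the set of IL-4. Levels are given as normalized CPM, counts scaled to library size by edgeR's TMM factors within each set, and always in the order of libraries a, b, c or d, e, f or 1, 2, 3. A level of 3 counts, used here as a floor for detection, equals 1.10 to 1.97 CPM in the former set and 0.463 to 0.828 CPM in the latter, for counting error only. No count in the former set was above 4095, which lies just under the 4096 molecules that a 6-base identifier can tell apart, whereas counts in the latter reached 191131. The sets may therefore not share a unit, and no stimulus was compared with unstimulated libraries of the other set. Among the members the highest count was that of *Rsad2*, at 84.9% of this ceiling, and counts corrected for the ceiling were also tested.

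The members were abundant in cells that had received no stimulus. Over all tested genes ranked by mean CPM, the median member stood at percentile 92.9 in unstimulated libraries a to c and at 91.4 in libraries d to f, and 25 and 24 of the 42 were among the top 10%. Together they held 1.78% ± 0.0341 (SD, n = 3) of the counts on genes in libraries a to c. *E. coli* gave a share of 1.21% ± 0.104, IFN-γ of 1.75% ± 0.0506 and both together of 1.70% ± 0.0410, while it was 1.66% ± 0.182 in libraries d to f and 2.33% ± 0.0465 with IL-4. Every *E. coli* library had a smaller share than every other library of its set, and every IL-4 library a larger share than libraries d to f.

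Markers of other cell types were checked beside those of eosinophils. The 10 eosinophil markers summed to 3392 CPM in libraries a to c, 2921 with *E. coli*, 3008 with IFN-γ, 2669 with both, 3553 in libraries d to f and 3187 with IL-4, and *Ccr3* was the most abundant of them in every library. *Siglecf* fell with *E. coli* (log2 -0.68), IFN-γ (-0.70) and both (-1.55), and rose with IL-4 (0.39), and *Epx*, the eosinophil peroxidase gene, had only 0 to 4 counts in each library with *E. coli* or IFN-γ and in libraries a to c. Markers of macrophages and monocytes reached 3826 CPM in libraries a to c and 27079 in libraries d to f, with *Ly6c2* the most abundant in every library, and its counts of 3359 to 4083 in the former set were close to the ceiling. In that set the sums that hold it, here and below, may therefore depend on library size. The same holds for sums of eosinophil markers, where *Ccr3* reached 3576 counts in *E. coli* library 2. B cell markers summed to 177 and 30.7 CPM, with *Ighm* the most abundant. T cell markers stayed at 3.66 to 7.20 CPM as group means, only 1 of 8 (*Cd3d*) could be tested and it was called with no stimulus, with 0 to 3 counts of *Thy1* in a library, and NK cell markers were at 0.111 to 3.07 CPM with *Klrb1c* at 0 in all 18 libraries. Dendritic cell markers were at 6.64 to 16.0 CPM, where *Siglech*, a marker of the plasmacytoid cells known for making type I interferon, had 2 to 14 counts in the set of *E. coli* and IFN-γ and 0 in all 6 libraries of the other, and *Xcr1* rose with IL-4 (1.34). In bulk RNA fewer cells of a type and less RNA per cell cannot be told apart, and this holds for every level below.

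In eosinophils with *E. coli*, most type I interferon stimulated genes fell. The largest falls were those of *Ifit2* and *Ifit3b*, whose proteins bind viral RNA, of *Mx1*, an antiviral GTPase, and of *Herc6*, the main ligase that attaches ISG15 to proteins in mice, and each dropped to under 42% of its unstimulated level. All 3 cytosolic RNA sensors, all 4 genes of the PARP and DTX3L group and 4 of 6 oligoadenylate synthetase genes were lower as well. No member rose. In numbers, 29 of the 42 members were called lower and 0 higher at an adjusted p under 0.05 in the quasi-likelihood test of edgeR, adjusted over all tested genes by Benjamini-Hochberg, where 16.7% of all tested genes were called lower and 13.5% higher. At an unadjusted p under 0.05, 33 were lower and 0 higher, and DESeq2 called 28 lower and 0 higher. The median log2 fold change of the members was -0.60, against -0.02 over all tested genes, 41 of the 42 had a value below 0, and 8 fell by a factor of 2 or more. Shares of all tested genes are not given for the unadjusted p, for DESeq2 or for the factor of 2. In 32 members the *E. coli* libraries lay wholly below libraries a to c, while 45.3% of all tested genes had no overlap between these groups in either direction.

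Of the *E. coli* libraries, number 3 had the highest level for 31 of the 42 members. Without it 33 members were called lower, and the share of all tested genes in that fit is not given. The same library was also the highest of the group in B cell markers, which summed to 217, 196 and 117 CPM in libraries a to c and 40.8, 44.5 and 76.5 CPM with *E. coli*, 5 of 5 tested markers being called lower. Macrophage and monocyte markers summed to 3523, 4347 and 3609 CPM in libraries a to c and 2645, 2309 and 3398 CPM with *E. coli*, and 5 of 12 were lower (among them *Timd4*, *Vsig4*, *Lyz2* and *Cd68*). Of these sums *Ly6c2*, with counts near the ceiling, made up 1521, 2553 and 1685 CPM and 1573, 1310 and 1658.5 CPM. Neutrophil markers summed to 12.7, 12.7 and 19.8 CPM and 61.2, 46.1 and 129 CPM, with *S100a8* the most abundant in each of these libraries and 1 of 2 tested higher, and mast cell markers to 9.69, 8.24 and 7.43 CPM and 9.79, 6.69 and 34.6 CPM, with 0 of 2 called by edgeR's test. Eosinophil markers summed to 3102, 3921 and 3154 CPM and 3035, 2754 and 2972 CPM, with 2 of 7 tested higher and 2 lower. The part of these cell types in the fall of the members was not tested.

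With IFN-γ the members split. *Tmem140*, *Ifit2*, *Trim30b* and *Dtx3l* rose the most, and the whole PARP and DTX3L group rose with them, whereas *Oas1g*, *Ifit3b*, *Ifi27l2a* and *Oas1a* fell the most. In all 11 members were called higher and 9 lower, where 15.6% and 16% of all tested genes were, so both shares of members, 26.2% and 21.4%, were nearer to those of all genes than with *E. coli*. The 9 lowered members were *Ifit3b*, *Oas1a*, *Oas1g*, *Oas2*, *Oas3*, *Bst2*, *Dhx58*, *Ifi27l2a* and *Sp100*. The median log2 fold change of the members was 0.10, against -0.03 over all tested genes. B cell markers, at 100.2, 61.5 and 58.2 CPM with IFN-γ, had 4 of 5 called lower, and macrophage and monocyte markers, at 4617, 4215 and 4884 CPM, had 3 of 12 higher and 2 lower. Neutrophil markers, at 65.5, 58.4 and 71.3 CPM, had 2 of 2 tested called higher, mast cell markers, at 30.2, 14.4 and 13.1 CPM, had 1 of 2 higher, and eosinophil markers, at 3044, 2773 and 3208 CPM, had 1 of 7 higher and 5 lower. Their part in the result was not tested.

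With both stimuli 15 members were called higher and 10 lower, where 23.9% and 25.2% of all tested genes were. The members that rose the most were *Tmem140*, *Trim30b*, *Parp14* and *Ifi44*, and those that fell the most were *Ifit3b*, *Ifit3*, *Oas1a* and *Ifi27l2a*. All 11 members that rose with IFN-γ alone also rose here, and *Isg15*, *Isg20*, *Oasl1* and *Ifi44* came to them. The median log2 fold change was 0.17, against -0.04 over all tested genes. No B cell marker of 5 was called by edgeR's test, at 121, 134 and 128 CPM, and macrophage and monocyte markers were at 4424, 4197 and 4782 CPM, with 2 of 12 higher and 2 lower. Mast cell markers, at 35.8, 70.1 and 66.6 CPM, and neutrophil markers, at 49.7, 66.8 and 101 CPM, each had 2 of 2 tested called higher, and eosinophil markers, at 2843, 2561 and 2603 CPM, had 2 of 7 higher and 4 lower. Their part in the result was not tested. These 3 comparisons share libraries a to c, so their values are set side by side and are not independent of each other.

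With IL-4 members rose or were not called, apart from *Ifit3b*, which fell. *Parp14*, *Eif2ak2*, which encodes the kinase PKR, *Herc6* and *Ifih1*, which encodes the RNA sensor MDA5, rose the most, and all 3 RNA sensors and all 3 genes of the ISG15 system were higher. In all 20 members were called higher, 1 lower and 21 neither, and 7 had a log2 fold change below 0, where 5.97% of all tested genes were called higher and 4.35% lower. The median log2 fold change was 0.45, against 0.00 over all tested genes, and 30 members had every IL-4 library above libraries d to f and 2 every one below, while 31.3% of all tested genes had no overlap in either direction. The number called higher depended on the libraries: without IL-4 library 1, 2 or 3 it was 8, 7 and 8 members higher, and without library d, e or f it was 17, 25 and 15. The shares of all tested genes called in these refits are not given, so the changes cannot be set against all genes. Of libraries d to f, e had the lowest level for 21 of the 42 members and f the highest for 26. The members held 1.70%, 1.46% and 1.82% of the counts on genes in libraries d, e and f. Whichever library was left out, 7 of the 20 were called (*Dhx58*, *Herc6*, *Ifih1*, *Isg15*, *Isg20*, *Parp14* and *Samd9l*), and all 20 kept a fold change above 0, with an adjusted p of at most 0.159 by edgeR's test. *Ifit3b* was no longer called without library f or any of the IL-4 libraries, with an adjusted p of at most 0.114 by the same test. B cell markers summed to 24.995, 23.7 and 43.4 CPM in libraries d to f and 64.3, 58.7 and 71.8 CPM with IL-4, with 3 of 4 tested called higher. Macrophage and monocyte markers were at 26464, 27700.3 and 27072 CPM and 26323, 27194 and 26316 CPM, with 5 of 13 lower. Eosinophil markers summed to 3175, 4268 and 3216 CPM in libraries d to f, with library e highest, and to 3117, 3261 and 3183.5 CPM with IL-4. Of these markers 4 of 10 were higher and 1 lower, and of the dendritic cell markers 1 of 3 tested was higher. Mast cell markers were at 7.32 CPM in libraries d to f and 15.2 CPM with IL-4 as group means, with 0 of 2 tested called by edgeR's test. Their part in the result was not tested.

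**Figure D1:**
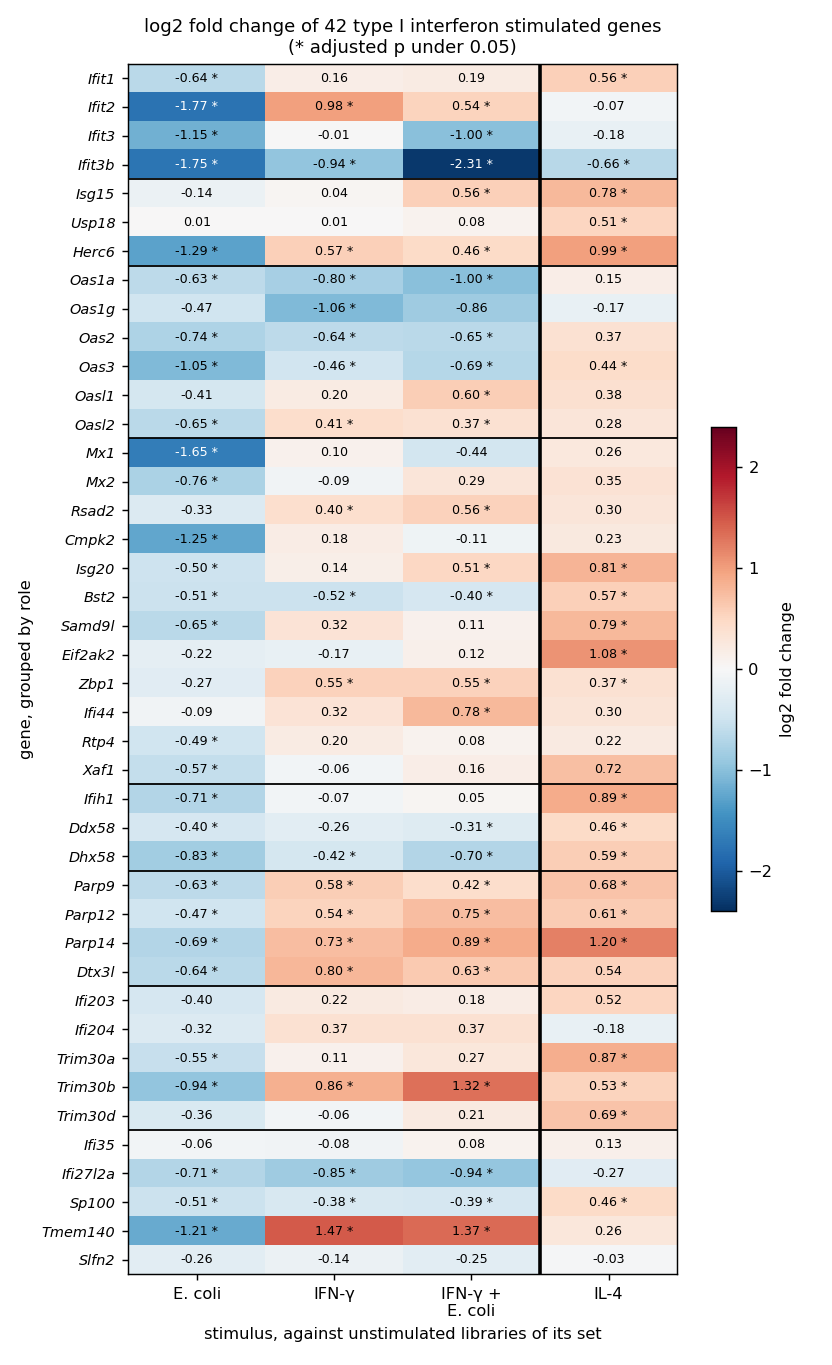
Heat map of the log2 fold changes of 42 type I interferon stimulated genes (one line of cells per gene, grouped by role) with each of 4 stimuli against the unstimulated libraries of its set (columns), where blue is lower, red is higher, and an asterisk marks an adjusted p under 0.05. The *E. coli* column is blue for 41 of 42 genes, whereas IL-4 raised 20 and IFN-γ raised 11 and lowered 9.

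Over the 4 stimuli 38 of the 42 members were called with at least 1 of them, as were 61.7% of the 9201 genes tested in both sets. *Slfn2*, *Ifi35*, *Ifi203* and *Ifi204* were called with none. In 19 members, and in 7.87% of these genes, the calls went in opposite directions with different stimuli. With all libraries in the fit, the most frequent such course was that of *Herc6*, *Parp9*, *Parp12*, *Parp14* and *Trim30b*, 5 members that were lower with *E. coli* and higher with the other 3 stimuli, as were 0.402% of these genes. Without IL-4 library 2, and also without library 3, the IL-4 calls of *Parp9*, *Parp12* and *Trim30b* were lost (adjusted p 0.0541 to 0.108 by edgeR's test). This leaves *Herc6* and *Parp14* of the 5, so the rank of this course depends on the libraries. *Ifit2*, *Oasl2*, *Dtx3l* and *Tmem140* were also lower with *E. coli* and higher with IFN-γ, with and without *E. coli*, but were not called with IL-4. *Oas3*, *Bst2*, *Dhx58* and *Sp100* were lower in all 3 groups with *E. coli* or IFN-γ and higher with IL-4, and *Ifit3b* was lower with all 4 stimuli. *Oas1a*, *Oas2* and *Ifi27l2a* were lower in the same 3 groups and not called with IL-4.

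The ligands of the pathway were next to absent. Of 18 type I interferon genes in the files, 3 had any count in any of the 18 libraries (*Ifnb1*, *Ifnk* and *Ifnab*), the highest was 3 counts of *Ifnb1* in IL-4 library 2, and the sum over all 18 genes was 0 to 4 counts in a library. None could be tested, and a level under the floor of 3 counts was not detectable at this depth, which for stimulated cells was after 18 h.

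Of 7 genes for interferon receptor chains and their kinases, 1 was called higher and 2 lower with *E. coli*, 1 higher and 0 lower with IFN-γ, 3 higher and 2 lower with both, and 2 higher and 0 lower with IL-4 by edgeR's test. Beside this and the lists that follow, the shares of all tested genes called higher and lower were 13.5% and 16.7% with *E. coli*, 15.6% and 16% with IFN-γ, 23.9% and 25.2% with both, and 5.97% and 4.35% with IL-4, and the counts of the lists were not tested against them. *Ifnar1* had a log2 fold change of 0.43 with *E. coli*, which was not called, and of 0.65 with both stimuli, which was. *Ifnar2* rose with IFN-γ (log2 0.86) and with both (0.90). The kinase gene *Tyk2* fell with *E. coli* (-0.48) and with both (-0.66), while *Jak1* was called with no stimulus.

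Among 12 tested genes for sensors and adaptors that lead to interferon production, 2 were called higher and 3 lower with *E. coli*, 3 and 2 with IFN-γ, 2 and 3 with both, and 0 and 1 with IL-4. *Tmem173*, which encodes the adaptor STING, fell with *E. coli* (log2 -1.63), with IFN-γ (-0.52) and with both (-1.31). So did *Mavs*, the adaptor of the RNA sensors, with values of -0.72, -0.97 and -0.90. *Tlr4* rose with *E. coli* (0.75), and *Cd14*, its co-receptor, rose with all 3 (0.77, 0.78 and 1.71). *Tbk1*, the kinase that activates IRF3, rose with IFN-γ (0.50) and with both (0.85).

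Transcription factors of the pathway were lower with *E. coli* and higher with the other stimuli where they were called. Of 8 such genes 4 were lower and 0 higher with *E. coli*, 5 higher with IFN-γ and with both, and 3 higher with IL-4. *Stat2*, which type I but not type II interferon signalling needs, had log2 fold changes of -0.95 with *E. coli*, 0.38 with IFN-γ, 0.48 with both and 0.78 with IL-4, all called. *Irf1*, a known target of IFN-γ, fell with *E. coli* (-0.76) and rose with IFN-γ (2.08), with both (2.04) and with IL-4 (0.97). *Irf7*, itself induced by type I interferon, fell with *E. coli* (-0.44), had -0.02 with both stimuli and 0.07 with IL-4, and was not called with these or with IFN-γ. Its counts were 3166, 2520 and 3051 in libraries a to c and 1774, 2210 and 2212 with both. The ceiling may therefore affect its values in this set, which are not corrected for it. *Irf9* lay between -0.02 and 0.10 with all 4 stimuli and was not called.

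The IFIT proteins, which bind viral RNA, are encoded by neighbouring genes on chromosome 19. All 4 fell with *E. coli*. *Ifit2* was measured at 151, 131 and 206 CPM in unstimulated libraries a to c, 39.6, 41.5 and 64.2 with *E. coli*, 296, 333 and 339 with IFN-γ and 196, 252 and 262 with both. All *E. coli* libraries lay below and all IFN-γ libraries above those without stimulus, and with both stimuli library 1 overlapped library c. The log2 fold changes were -1.77 ± 0.19 (SE) with *E. coli* (adjusted p = 8.7e-07 by edgeR's quasi-likelihood test), 0.98 ± 0.17 with IFN-γ (1.8e-04) and 0.54 ± 0.17 with both (0.0134). The rise with both was not called without library a (adjusted p = 0.0609 by the same test) or library b (0.0573). With IL-4 *Ifit2* was at 121, 129.6 and 108 CPM against 132, 107 and 139.7 in libraries d to f, which overlap.

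*Ifit3* and *Ifit3b* are near-identical neighbours, with 97.8% identity over 1700 bases, so reads may be split between them or lost, and their separate levels are uncertain. *Ifit3* stood at 507, 469 and 515 CPM without stimulus, 144, 173 and 358 with *E. coli*, 474, 484 and 523 with IFN-γ and 207, 234 and 307 with both. Both groups that had received *E. coli* were below every other library of the set, and IFN-γ alone overlapped the unstimulated libraries. *Ifit3b* stood at 133, 117 and 145 CPM without stimulus, 33.9, 34.1 and 51.3 with *E. coli*, 71.6, 66.6 and 68.7 with IFN-γ and 23.4, 21.9 and 35.0 with both. Here all 3 stimulated groups were below libraries a to c, and those with both stimuli overlapped those with *E. coli* alone. The fold changes of *Ifit3* were -1.15 ± 0.23 with *E. coli*, -0.01 ± 0.22 with IFN-γ, not called, and -0.998 ± 0.23 with both, and those of *Ifit3b* were -1.75 ± 0.16, -0.94 ± 0.16 and -2.31 ± 0.18. In the IL-4 set *Ifit3* was at 812, 782 and 976 CPM in libraries d to f and 753, 735 and 777 with IL-4, and was not called. *Ifit3b* was at 157, 172 and 229.9 CPM in libraries d to f and 115, 114 and 124 with IL-4, a fall of log2 -0.66 ± 0.15 without overlap.

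*Ifit1* stood at 842, 1063 and 922 CPM in libraries a to c, 501, 527 and 787 with *E. coli*, 997, 1029 and 1139 with IFN-γ and 1089, 1037 and 1092 with both. It was lower in every *E. coli* library, with library 3 closest to the unstimulated ones, and the other groups overlapped libraries a to c. With IL-4 it rose from 1355, 1232 and 1588 to 1995, 2024 and 2149 CPM, a log2 fold change of 0.56 ± 0.12 that was not called without any one of the IL-4 libraries (adjusted p 0.0626 to 0.0795 by edgeR's test). With IFN-γ the IFIT genes thus had different calls: *Ifit2* rose, *Ifit3b* fell and *Ifit1* and *Ifit3* were not called. Whether the genes differ from each other was not tested.

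**Figure D2:**
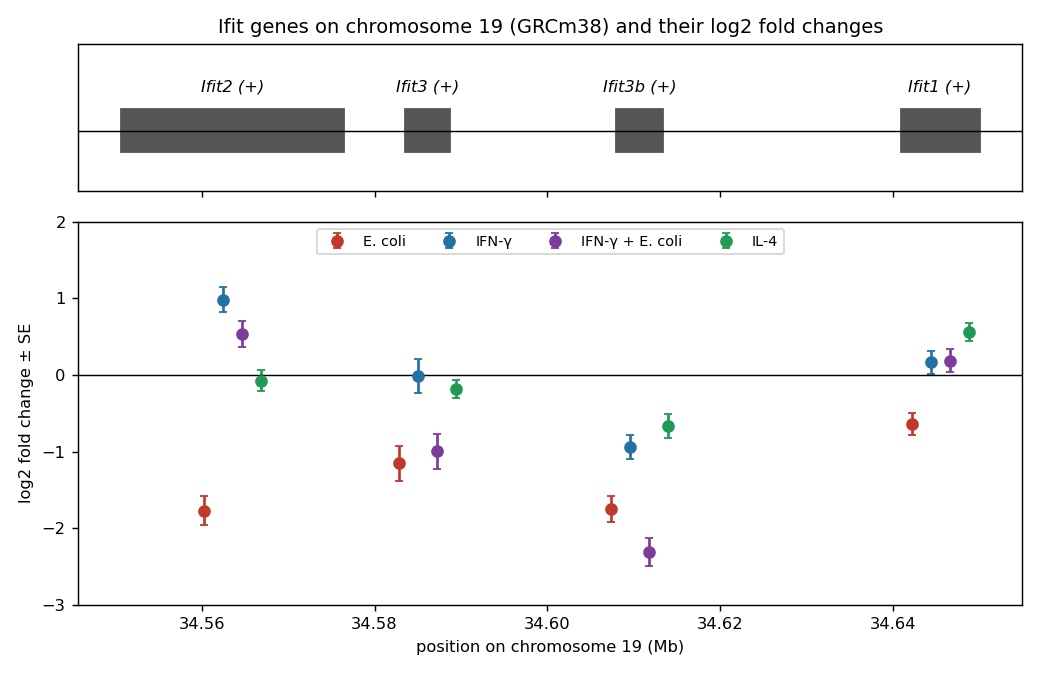
Map of *Ifit2*, *Ifit3*, *Ifit3b* and *Ifit1* on chromosome 19 (GRCm38, plus strand, position in Mb) above their log2 fold changes with each stimulus (points, bars are 1 SE). The *E. coli* point lies below 0 for all 4 genes, while the IFN-γ point lies above 0 for *Ifit2* and below for *Ifit3b*.

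ISG15 is a ubiquitin-like protein that is attached to others by HERC6 and removed by USP18. *Herc6* stood at 154, 137 and 187 CPM in libraries a to c, 60.8, 67.5 and 68.6 with *E. coli*, 215, 260.4 and 239 with IFN-γ and 239, 232 and 191 with both. Its *E. coli* libraries were all below, and those of the other groups all above, the unstimulated ones. The log2 fold changes were -1.29 ± 0.14 (adjusted p = 8.8e-07 by edgeR's test), 0.57 ± 0.13 (0.00195) and 0.46 ± 0.13 (0.00601). With IL-4 *Herc6* rose from 104, 91.9 and 118 to 212, 203 and 212 CPM (0.99 ± 0.13, adjusted p = 0.00104 by the same test). *Isg15* itself was not called with *E. coli* (-0.14) or IFN-γ (0.04) but rose with both (0.56 ± 0.13) and with IL-4 (0.78 ± 0.14). *Usp18*, which also limits type I interferon signalling at its receptor, lay between 0.01 and 0.08 with *E. coli*, IFN-γ and both, the smallest range of any member there, and rose with IL-4 (0.51 ± 0.10), a call that was lost without any one of the IL-4 libraries (adjusted p 0.0541 to 0.0837 by edgeR's test).

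The oligoadenylate synthetases make a short adenylate chain that activates the nuclease RNase L. With *E. coli* 4 of the 6 fell, and the rest had values of -0.47 (*Oas1g*) and -0.41 (*Oasl1*). With IFN-γ *Oas1a*, *Oas1g*, *Oas2* and *Oas3* fell, whereas *Oasl2* rose and *Oasl1* was not called. *Oas3* stood at 592, 717 and 609 CPM in libraries a to c, 324, 277 and 325 with *E. coli*, 440.0, 453 and 499 with IFN-γ and 419, 331 and 442 with both. No stimulated library reached the unstimulated ones, and *E. coli* alone gave the lowest values. The fold changes were -1.05 ± 0.12, -0.46 ± 0.12 and -0.69 ± 0.12, and that with IFN-γ was not called without library b (adjusted p = 0.0518 by edgeR's test). With IL-4 the gene went the other way, from 179, 203 and 189 to 260.2, 244 and 272 CPM (0.44 ± 0.11), but leaving out any library other than e ended this call, with an adjusted p of up to 0.135 by the same test.

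*Oas1a* and *Oas1g* share 97.6% of 1861 bases, and their separate levels are uncertain for the same reason as those of *Ifit3* and *Ifit3b*. *Oas1a* stood at 53.7, 48.2 and 47.5 CPM without stimulus, 34.7, 27.1 and 36.0 with *E. coli*, 30.8, 27.2 and 28.1 with IFN-γ and 19.7, 25.8 and 29.0 with both. *Oas1g*, the least abundant member, stood at 7.82, 10.8 and 12.8 CPM, 4.49, 9.36 and 8.39, 6.16, 3.08 and 5.89 and 4.38, 7.67 and 4.62. For *Oas1a* no stimulated library overlapped the unstimulated ones, and for *Oas1g* only *E. coli* did. The log2 fold changes of *Oas1a* were -0.63, -0.80 and -0.997, all called. That of *Oas1g* with IFN-γ, -1.06 ± 0.38, was lost with DESeq2 (adjusted p = 0.128) and without library b, c or any of the IFN-γ libraries (adjusted p 0.0515 to 0.193 by edgeR's test). With IL-4 neither was called, at 26.6, 24.9 and 25.7 CPM against 18.6, 28.8 and 21.5 for *Oas1a* and 7.04, 5.15 and 8.81 against 7.78, 7.45 and 8.12 for *Oas1g*, both with overlap. *Oas2* fell in all 3 groups with *E. coli* or IFN-γ (-0.74, -0.64 and -0.65).

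*Oasl2* stood at 800.0, 994 and 889 CPM in libraries a to c, 579, 558 and 573 with *E. coli*, 1136, 1113 and 1326 with IFN-γ and 1223, 1089 and 1166 with both. The *E. coli* libraries lay below and all others above the unstimulated ones. Its fold changes were -0.65 ± 0.11, 0.41 ± 0.11 and 0.37 ± 0.11, and the rises were not called without library a (adjusted p = 0.0516 with IFN-γ and 0.0557 with both by edgeR's test). With IL-4 *Oasl2* was at 1230.4, 1206 and 1192 CPM against 930.1, 1183 and 867, which was not called. *Oasl1* rose with both stimuli (0.60 ± 0.17) but was not called with either alone.

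**Figure D3:**
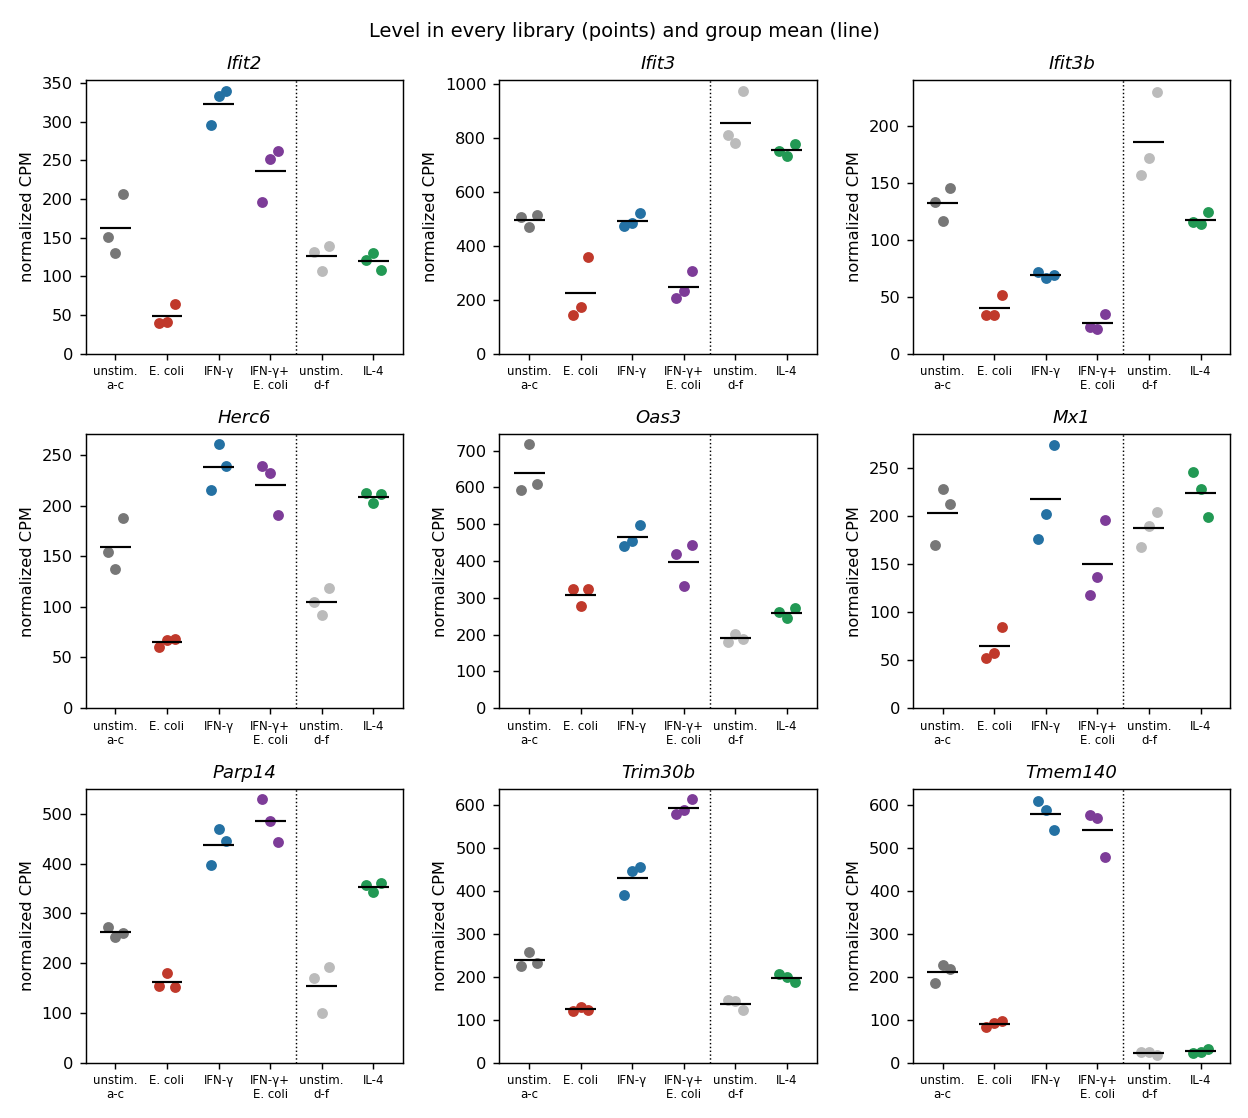
Normalized CPM of 9 members (*Ifit2*, *Ifit3*, *Ifit3b*, *Herc6*, *Oas3*, *Mx1*, *Parp14*, *Trim30b* and *Tmem140*) in every library, with points for libraries and lines for group means, and a dotted line between the sets of *E. coli* and IFN-γ (left) and of IL-4 (right). In all 9 panels the *E. coli* libraries lie below unstimulated libraries a to c, and with both stimuli *Ifit3* and *Ifit3b* overlap *E. coli* alone whereas the other 7 lie above it.

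*Mx1* encodes a GTPase that blocks influenza viruses, and most laboratory strains are known to carry a disrupted copy of it. It stood at 170.3, 229 and 213 CPM in libraries a to c, 52.6, 57.8 and 84.9 with *E. coli*, 177, 203 and 275 with IFN-γ and 118, 137 and 196 with both. The *E. coli* libraries were below all others of the set, and the other groups overlapped. The fall with *E. coli* was log2 -1.65 ± 0.20 (adjusted p = 5.8e-06 by edgeR's test), to 31.8% of the unstimulated level. In the other set *Mx1* was at 168, 190.0 and 205 CPM in libraries d to f and 246, 229 and 199 with IL-4, with overlap and no call. *Mx2*, which shares a stretch of 95.3% identity with *Mx1* and is annotated as a polymorphic pseudogene, had a fall of -0.76 ± 0.24 with *E. coli* that was lost with DESeq2 (adjusted p = 0.0605) and without library a, c, or *E. coli* library 1 or 2 (adjusted p 0.0540 to 0.113 by edgeR's test).

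*Rsad2* encodes viperin, which makes a nucleotide that halts viral polymerases, and *Cmpk2*, its neighbour on chromosome 12, a nucleotide kinase. With *E. coli* *Cmpk2* fell (-1.25 ± 0.17) and *Rsad2* was not called (-0.33 ± 0.15). Once counts were corrected for the ceiling, which *Rsad2* came closest to, its value was -0.51 and was called (adjusted p = 0.0129 by edgeR's test). Its rise with IFN-γ (0.40 ± 0.15) was close to the threshold, and was lost without library a or c, *E. coli* library 1, any of the IFN-γ libraries or library 2 with both (adjusted p 0.0502 to 0.177 by the same test). The rise with both was 0.56 ± 0.15, and with IL-4 neither gene was called.

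*Bst2* encodes tetherin, which holds budding viruses at the cell surface. It stood at 721, 933 and 723 CPM in libraries a to c, 517, 493 and 655 with *E. coli*, 552, 565 and 534 with IFN-γ and 546, 630.1 and 623 with both, all stimulated libraries being lower. The fold changes were much alike, at -0.51 ± 0.13, -0.52 ± 0.13 and -0.40 ± 0.13, and the last was lost without library b (adjusted p = 0.110) or library 1 with both (0.0906, edgeR's test). With IL-4 *Bst2* rose from 1171, 832 and 1149 to 1464, 1493 and 1719 CPM (0.57 ± 0.15), a call lost without library f or any of the IL-4 libraries (adjusted p 0.0526 to 0.152 by the same test).

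*Isg20*, an RNA exonuclease gene, stood at 398, 423 and 451 CPM in libraries a to c, 292, 287 and 321 with *E. coli*, 442, 484 and 476 with IFN-γ and 660.2, 584 and 563 with both. *E. coli* alone gave values below, and both stimuli together values above, all unstimulated libraries. These were falls and rises of -0.50 ± 0.10 and 0.51 ± 0.10, with no call for IFN-γ alone (0.14). In the IL-4 set it rose from 430.2, 316 and 415 to 643, 701 and 697 CPM (0.81 ± 0.14). *Samd9l*, a gene that restricts poxviruses, stood at 523, 481 and 553 CPM in libraries a to c, 315, 395 and 279 with *E. coli*, 532, 761 and 657 with IFN-γ and 607, 688 and 386 with both, and at 632, 581 and 605 CPM in libraries d to f and 1031, 1022 and 1081 with IL-4. It was below the unstimulated range with *E. coli* (-0.65 ± 0.18) and above it with IL-4 (0.79 ± 0.10), and overlapped it in the other groups.

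*Eif2ak2* was moved by IL-4 alone among the 4 stimuli by edgeR's test. Its level was 109, 53.2 and 118 CPM in libraries d to f and 196, 206 and 188 with IL-4, with library e lowest by far and no overlap. The log2 fold change was 1.08 ± 0.24 and was lost without any one of the IL-4 libraries (adjusted p 0.0720 to 0.0880 by edgeR's test). In the other set it was at 204, 169.9 and 180.5 CPM without stimulus, 164, 165 and 147 with *E. coli*, 158, 192 and 143 with IFN-γ and 236, 225 and 144 with both, and none of these differences was called. *Zbp1*, a sensor of Z-form nucleic acids that can trigger cell death, rose with IFN-γ (0.55 ± 0.11), with both (0.55 ± 0.11) and with IL-4 (0.37 ± 0.10), the last being called only with all libraries or without library e, with an adjusted p of up to 0.159 by the same test. *Rtp4* and *Xaf1* fell with *E. coli* (-0.49 and -0.57) and were called with no other stimulus. *Ifi44*, at 11.2, 10.1 and 20.2 CPM without stimulus, 10.6, 9.03 and 21.7 with *E. coli*, 15.7, 19.99 and 17.003 with IFN-γ and 24.1, 27.4 and 21.1 with both, was above the unstimulated range only with both. This rise of 0.78 ± 0.30 was lost with DESeq2 (adjusted p = 0.0593) and without library a or b or library 1 or 2 with both (0.0599 to 0.163 by edgeR's test). With IL-4 *Ifi44* was at 36.3, 32.2 and 25.7 CPM against 16.7, 25.2 and 34.2, with overlap.

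The RNA sensors RIG-I, MDA5 and LGP2 are encoded by *Ddx58*, *Ifih1* and *Dhx58*. All 3 were lower with *E. coli* and higher with IL-4. *Dhx58* stood at 228, 208 and 206 CPM in libraries a to c, 128, 114 and 119 with *E. coli*, 149, 149.7 and 181 with IFN-γ and 104, 127 and 165 with both, and at 145, 153 and 156 in libraries d to f and 220.1, 226 and 239 with IL-4. Every stimulated group was apart from its unstimulated libraries. The fold changes were -0.83 ± 0.14, -0.42 ± 0.14, -0.70 ± 0.14 and 0.59 ± 0.11, and that with IFN-γ was lost with DESeq2 (adjusted p = 0.0632) and without library a or b or IFN-γ library 1 or 2 (0.0509 to 0.122 by edgeR's test).

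*Ifih1* stood at 174, 119 and 167 CPM in libraries a to c, 92.2, 90.9 and 100.2 with *E. coli*, 133, 152 and 156 with IFN-γ and 169, 172 and 139.8 with both, and at 74.99, 55.7 and 77.0 and 125, 128 and 131 in libraries d to f and with IL-4. Only *E. coli* (-0.71 ± 0.14) and IL-4 (0.89 ± 0.15) gave values apart from the unstimulated ones. *Ddx58* stood at 373, 377 and 421 CPM in libraries a to c, 300.2, 299.6 and 285 with *E. coli*, 287, 341 and 352 with IFN-γ and 316, 309.6 and 319.8 with both, and at 284, 269 and 294 and 406, 360.4 and 395 in the IL-4 set. It fell with *E. coli* (-0.40 ± 0.10) and with both (-0.31 ± 0.10), the latter lost without library c or library 1 or 2 with both (adjusted p 0.0646 to 0.087 by edgeR's test). It rose with IL-4 (0.46 ± 0.11), which was lost without library f or any of the IL-4 libraries (0.0573 to 0.136 by the same test).

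The PARP and DTX3L group holds the ADP-ribosyltransferase genes *Parp9*, *Parp12* and *Parp14* and the ubiquitin ligase gene *Dtx3l*, whose protein pairs with PARP9. All 4 fell with *E. coli* and rose with IFN-γ and with both. *Parp14* stood at 273, 252 and 261 CPM in libraries a to c, 155, 179.5 and 152 with *E. coli*, 397, 469 and 445 with IFN-γ and 529.5, 485 and 443 with both. The groups were apart from the unstimulated libraries throughout, with fold changes of -0.69 ± 0.11, 0.73 ± 0.11 and 0.89 ± 0.11. With IL-4 it rose from 169.7, 101 and 193 to 358, 342 and 362 CPM, the largest rise of any member there (1.201 ± 0.20, adjusted p = 0.00442 by edgeR's test).

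*Parp9* stood at 66.3, 77.3 and 76.0 CPM in libraries a to c, 46.9, 48.5 and 45.9 with *E. coli*, 113, 104 and 111 with IFN-γ and 96.4, 96.4 and 100.2 with both, and *Parp12* at 276, 288 and 283, 206, 189 and 216, 369, 416 and 447 and 481, 419 and 524 CPM. For both genes the *E. coli* libraries were below and the other stimulated ones above libraries a to c. In the IL-4 set *Parp9* went from 28.1, 32.8 and 35.3 to 46.2, 49.8 and 58.6 CPM (0.68 ± 0.16) and *Parp12* from 145, 176 and 182 to 247, 271 and 254 CPM (0.61 ± 0.13). The IL-4 call of *Parp9* was lost without library d or any of the IL-4 libraries, and that of *Parp12* without IL-4 library 2 or 3 (adjusted p 0.0541 to 0.108 by edgeR's test). *Dtx3l* stood at 255, 241 and 225 CPM in libraries a to c, 148, 152 and 162 with *E. coli*, 402, 421 and 430.3 with IFN-γ and 355, 337 and 422 with both, again without overlap, and the changes were -0.64, 0.80 and 0.63. With IL-4 it was at 543, 571 and 541 CPM against 262, 496 and 375, which was not called. *Parp9* and *Dtx3l* overlap on opposite strands, and since the sources used here do not state whether counting used the strand, reads from the overlap cannot be told apart.

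*Trim30a*, *Trim30b* and *Trim30d* lie close together on chromosome 7, and TRIM30A is known to restrain NF-κB signalling. *Trim30b* stood at 225, 257 and 232 CPM in libraries a to c, 119.9, 129.7 and 121 with *E. coli*, 390.1, 445 and 454 with IFN-γ and 578, 587 and 613 with both. The groups did not overlap, and with both stimuli every library was above every library with IFN-γ alone. Fold changes were -0.94 ± 0.11, 0.86 ± 0.10 and 1.32 ± 0.10. With IL-4 *Trim30b* rose from 146, 143 and 123 to 207, 199 and 188 CPM (0.53 ± 0.12), a call lost without library f or any of the IL-4 libraries (adjusted p 0.0647 to 0.106 by edgeR's test).

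*Trim30a* stood at 585, 509 and 609.6 CPM in libraries a to c, 366, 373 and 428 with *E. coli*, 587, 662 and 589.9 with IFN-γ and 766, 748 and 543 with both, and at 521, 341 and 541 and 899.8, 894 and 769 CPM in the IL-4 set. It was below the unstimulated range with *E. coli* (-0.55 ± 0.13) and above it with IL-4 (0.87 ± 0.17), the latter lost without IL-4 library 1 or 2 (adjusted p 0.0586 and 0.0597 by edgeR's test). *Trim30d* rose with IL-4 only (0.69 ± 0.14), lost without library f or any of the IL-4 libraries (0.0507 to 0.0754 by the same test), and it shares 97.7% of 301 bases with *Trim30a*. *Ifi203* and *Ifi204*, of the family of PYHIN proteins that bind DNA, had values of -0.40 and -0.32 with *E. coli* and were called with no stimulus. Both have near-identical neighbours.

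*Tmem140* had the largest rise of any member with IFN-γ and with both stimuli. It stood at 186, 227 and 218 CPM in libraries a to c, 82.4, 93.0 and 96.8 with *E. coli*, 608, 588 and 542 with IFN-γ and 576, 569 and 479 with both. *E. coli* alone gave the lowest values and both groups with IFN-γ the highest, all apart from the unstimulated ones. The fold changes were -1.21 ± 0.12 (adjusted p = 4.6e-07 by edgeR's test), 1.47 ± 0.12 (1.6e-08) and 1.37 ± 0.12 (1.6e-08). In the IL-4 set it was far lower, at 23.6, 25.2 and 17.2 CPM in libraries d to f and 22.8, 24.8 and 31.9 with IL-4, and not called. The level in the unstimulated cells thus differed between the sets, and whether this came from the cells or from how the libraries were made cannot be told apart. An exon of *Tmem140* overlaps *Cyren* on the other strand.

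*Ifi27l2a* stood at 564, 569.8 and 511 CPM in libraries a to c, 319.8, 322 and 363 with *E. coli*, 326, 322 and 265 with IFN-γ and 209, 319 and 328 with both, every stimulated library being lower. The falls were -0.71 ± 0.14, -0.85 ± 0.14 and -0.94 ± 0.14. With IL-4 it was at 254, 266 and 294 CPM against 289.9, 338 and 354, with overlap and no call. *Sp100*, which encodes a protein of nuclear bodies, stood at 615, 537 and 609 CPM in libraries a to c, 397, 413 and 427 with *E. coli*, 405, 477 and 469 with IFN-γ and 434, 485 and 421 with both, again lower in every stimulated library (-0.51, -0.38 and -0.39). Its fall with IFN-γ was lost without IFN-γ library 1 (adjusted p = 0.0700 by edgeR's test). With IL-4 it rose from 906, 964 and 1095 to 1331, 1391 and 1369 CPM (0.46 ± 0.11), lost without library d or any of the IL-4 libraries (0.0619 to 0.122 by the same test). *Slfn2* and *Ifi35* had fold changes of -0.26 and -0.06 with *E. coli* and were called with no stimulus.

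With IFN-γ added to *E. coli*, most members were higher than with *E. coli* alone. Between cells with both stimuli and cells with *E. coli* alone, 27 members were higher and 1 (*Ifit3b*) was lower, where 17.5% and 15.3% of all tested genes were, with a median log2 fold change of 0.75 against -0.02 over all tested genes. *Tmem140* (2.58 ± 0.12), *Ifit2* (2.31 ± 0.19) and *Trim30b* (2.26 ± 0.11) differed the most, and 14 members by a factor of 2 or more, for which the share of all tested genes is not given. The lower level of *Ifit3b* (-0.56 ± 0.20) was lost with DESeq2, which called 0 members lower, and the count was also 0 without *E. coli* library 3 or library 1 or 2 with both. The rise of *Ifi44* was lost with DESeq2 (adjusted p = 0.0666). Those of *Oas3*, *Ifi44* and *Ifi204* were each lost without *E. coli* library 1 or 2, and also without library 1 or 3 with both for *Oas3*, library 1 or 2 for *Ifi44* and library 2 for *Ifi204* (adjusted p 0.0568 to 0.172 by edgeR's test). Of *Oas1a*, *Oas1g*, *Oas2* and *Oas3* only *Oas3* was called, and *Bst2* (0.11), *Ifi27l2a* (-0.23) and *Sp100* (0.12) were not called. Markers differed between the same groups, with 5 of 5 tested B cell markers, 2 of 2 mast cell, 1 of 2 neutrophil and 5 of 12 macrophage and monocyte markers higher and 4 of 7 eosinophil markers lower, and their part in the result was not tested.

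Between cells with both stimuli and cells with IFN-γ alone, *Isg15* (0.52 ± 0.13), *Isg20* (0.37 ± 0.10) and *Trim30b* (0.46 ± 0.10) were higher, and *Ifit3* (-0.99 ± 0.23) and *Ifit3b* (-1.37 ± 0.20) were lower. These 3 and 2 of 42 members compare with 6.25% and 5.98% of all tested genes, and the median was -0.01 for the members and 0.01 for all tested genes. The count of higher members was 1 without IFN-γ library 1 and 5 without library 3 with both, and the latter also gave 4 lower, as did the fit without a filter on low counts. Of the markers, 3 of 5 B cell, 1 of 2 mast cell and 2 of 7 eosinophil markers were higher and 2 of 7 eosinophil markers lower, and their part was not tested. *Isg15* was lost without IFN-γ library 1 (adjusted p = 0.0504), and *Isg20* without any one of the IFN-γ libraries or library 1 or 2 with both (0.0584 to 0.128, edgeR's test). Between IFN-γ alone and *E. coli* alone 26 members were higher with IFN-γ, and 0 were lower by edgeR's adjusted p, by its unadjusted p under 0.05 or by DESeq2, where 14.1% of all tested genes were higher and 11.5% lower, and the median was 0.65 against -0.02. Here 7 of 12 macrophage and monocyte markers, 1 of 5 B cell, 1 of 2 neutrophil and 1 of 7 eosinophil markers were higher and 3 of 7 eosinophil markers lower, and their part in the result was not tested. *Dhx58* was not called by DESeq2 (adjusted p = 0.0501). The rises of *Oasl1*, *Dhx58* and *Ifi204* were each lost without *E. coli* library 1 or 2, and further that of *Dhx58* without *E. coli* library 3 or IFN-γ library 3 and that of *Ifi204* without any of the IFN-γ libraries (adjusted p 0.0551 to 0.183 by edgeR's test). The largest differences were those of *Ifit2* (2.75 ± 0.19), *Tmem140* (2.68 ± 0.12) and *Herc6* (1.86 ± 0.14).

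The interaction of both stimuli, that is the departure of the joint log2 effect from the sum of the separate ones, was above 0 in all 42 members. It was called in 15, all positive, where 2.58% of all tested genes had a positive and 2.04% a negative interaction. In 0 members was it negative by edgeR's adjusted test, at an unadjusted p under 0.05 or by DESeq2, and 30 were positive at an unadjusted p under 0.05 and 18 by DESeq2. Shares of all tested genes are not given for the unadjusted p or for DESeq2. The median was 0.62, against 0.00 over all tested genes. *Trim30b* had 1.40 ± 0.15 (adjusted p = 2.2e-05 by edgeR's test), *Ifit2* 1.33 ± 0.25 (0.00394), *Herc6* 1.17 ± 0.19 (9.8e-04) and *Tmem140* 1.11 ± 0.16 (6.1e-04). The joint level of *Herc6*, for example, was 220.4 ± 26.1 CPM (SD, n = 3), next to 238 ± 22.7 CPM with IFN-γ alone, 65.7 ± 4.25 CPM with *E. coli* alone and 159 ± 25.7 CPM without stimulus. The count was 9 and 8 without *E. coli* libraries 1 and 2 and 8 without IFN-γ library 1, and whichever library was left out 8 of the 15 were called (*Ifit2*, *Herc6*, *Oas3*, *Isg20*, *Xaf1*, *Parp14*, *Trim30b* and *Tmem140*). The calls of *Cmpk2*, *Ifih1*, *Isg15*, *Mx1*, *Oasl2*, *Parp12* and *Trim30a* were lost in turn, each of the 7 without *E. coli* library 2, without IFN-γ library 1 and in part without others, with an adjusted p of at most 0.150 by the same test. B cell markers had a positive interaction in 5 of 5 tested, with a median log2 of 2.68 and levels of 217, 196 and 117 CPM in libraries a to c, 40.8, 44.5 and 76.5 with *E. coli*, 100.2, 61.5 and 58.2 with IFN-γ and 121, 134 and 128 with both. Macrophage and monocyte markers had it in 1 of 12, *Timd4*, with a median log2 of 0.73 over the 12, which is above that of the members. Neutrophil markers had a negative one in 1 of 2, and the part of these cells in the interaction of the members was not tested.

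Genes that limit interferon signalling were also measured. Of 10 tested, 4 were higher and 2 lower with *E. coli*, 4 and 1 with IFN-γ, 6 and 1 with both, and 3 and 0 with IL-4 by edgeR's test. *Socs1*, a feedback inhibitor of JAK kinases, rose with *E. coli* (log2 0.77), IFN-γ (1.34), both (1.30) and IL-4 (1.52), and *Socs3* with *E. coli* (2.00), both (2.31) and IL-4 (1.32). Among 55 tested genes of a further list of interferon-stimulated genes, which includes *Stat2*, *Irf7* and *Irf9*, 1 was higher and 35 were lower with *E. coli*, 15 and 14 with IFN-γ, 17 and 17 with both, and 25 and 1 with IL-4. Their medians were -0.67, 0.13, 0.09 and 0.44, next to -0.60, 0.10, 0.17 and 0.45 for the 42 members. The interaction of both stimuli was positive in 16 of the 55 and negative in 0 by edgeR's test. Of 25 known IFN-γ targets, which share *Irf1* and *Socs1* with the lists above, 3 were higher and 14 lower with *E. coli*, 24 higher with IFN-γ, 25 with both and 12 with IL-4, with medians of -0.47, 1.56, 1.80 and 0.56. The interaction was positive in 8 and negative in 1 of these 25, with a median of 0.58. Of the 8 transcription factors of the pathway it was positive in 3 and negative in 0, with a median of 0.57.

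The promoters of the members were read for motifs of the transcription factors of the pathway. RefSeq windows from 250 bases before to 50 after a transcript start (GRCm38.p6) were given for 31 of the 42 members. The core of the interferon-stimulated response element, searched as GAAANNGAAA on both strands, was in a window of 16 of these 31 (51.6%), and in 3.99% of 27025 genes with windows. A gamma-activated site, TTCNNNGAA, was in 6 (19.4%) against 9.55% of genes, and a κB core, GGGANNTTCC, in 2 (*Ifit2* and *Isg20*; 6.45%) against 1.63%. By call, the response element core was in 5 of 6 members with a window that fell with IFN-γ and in 2 of 8 that rose, in 6 of 7 that fell with both stimuli and in 3 of 12 that rose, in 10 of 21 that fell with *E. coli*, and in 9 of 15 that rose with IL-4. Among members not called it was in 9 of 17 with IFN-γ, 7 of 12 with both, 6 of 10 with *E. coli* and 6 of 15 with IL-4. The 5 that fell with IFN-γ include the near-identical genes *Oas1a* and *Oas1g*. The 6 that fell with both stimuli, and the 10 that fell with *E. coli*, include the near-identical genes *Ifit3* and *Ifit3b*, whose stretches with the core are the same. These counts describe letters in a window and were not tested, and a core that is not in the window may lie elsewhere.

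The stretches with the core are shown for 9 of the 16 members that have it, chosen by hand with the results known to set near-identical genes side by side and to give examples of members that fell and of members that rose. Those of *Ddx58*, *Eif2ak2*, *Ifi203*, *Ifih1*, *Rsad2*, *Trim30a* and *Trim30d* are not shown. The sequences are written from 5′ to 3′ on the strand of the gene with the letters of every core, in either orientation, in capitals. *Ifit3* (chr19:34583353-34583436, plus strand) and *Ifit3b* (chr19:34607749-34607832, plus strand) each have 2 cores at the same spacing, and *Oas1a* (chr5:120907510-120907565, minus strand) and *Oas1g* (chr5:120887596-120887651, minus strand) each have 2 that overlap. *Oas3* (chr5:120777705-120777754, minus strand) and *Bst2* (chr8:71537567-71537622, minus strand) fell in all 3 groups with *E. coli* or IFN-γ. *Isg15* (chr4:156200855-156200916, minus strand), *Ifit1* (chr19:34640765-34640833, plus strand) and *Tmem140* (chr6:34863063-34863112, plus strand) rose with at least 1 stimulus. However, *Oas3* and *Bst2* rose with IL-4, and *Ifit1* and *Tmem140* fell with *E. coli*. All stretches shown lie in promoter windows of the genes named, and coordinates are those of GRCm38.p6.
Ifit3: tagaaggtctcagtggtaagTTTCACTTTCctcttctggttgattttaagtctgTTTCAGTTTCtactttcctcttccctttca
Ifit3b: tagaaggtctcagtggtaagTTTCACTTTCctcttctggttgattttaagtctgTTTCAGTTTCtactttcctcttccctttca
Oas1a: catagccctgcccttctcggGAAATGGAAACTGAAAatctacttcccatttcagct
Oas1g: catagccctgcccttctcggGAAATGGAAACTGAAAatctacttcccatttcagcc
Oas3: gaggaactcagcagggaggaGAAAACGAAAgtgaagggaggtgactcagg
Bst2: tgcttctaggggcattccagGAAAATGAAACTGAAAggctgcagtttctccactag
Isg15: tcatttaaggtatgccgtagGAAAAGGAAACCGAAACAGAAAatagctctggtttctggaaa
Ifit1: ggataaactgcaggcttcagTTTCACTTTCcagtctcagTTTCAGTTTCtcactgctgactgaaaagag
Tmem140: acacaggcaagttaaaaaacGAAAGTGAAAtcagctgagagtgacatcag

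The members are spread over 13 chromosomes and lie in part in clusters. Chromosomes 5 and 16 hold 6 members each, chromosome 6 holds 5, and chromosomes 7, 11 and 19 hold 4 each. On chromosome 5 *Oas2* (chr5:120730333-120749853), *Oas3* (chr5:120753098-120777661), *Oas1g* (chr5:120876142-120887613) and *Oas1a* (chr5:120896256-120907521) lie in the same cluster (GRCm38), and all 4 were lower with IFN-γ, while *Oasl2* (chr5:114896936-114912234) and *Oasl1* (chr5:114923240-114937915) form a pair of their own. On chromosome 19 *Ifit2* (chr19:34550694-34576419), *Ifit3* (chr19:34583531-34588731), *Ifit3b* (chr19:34607970-34613401) and *Ifit1* (chr19:34640871-34650009) lie on the plus strand. On chromosome 16 *Parp14* (chr16:35832874-35871544), *Dtx3l* (chr16:35926511-35939151) and *Parp9* (chr16:35938470-35972605) are neighbours, and all 3 fell with *E. coli* and rose with IFN-γ. An exon of 8 members overlaps a gene on the opposite strand and that of 5 a gene on the same strand, and 14 members have a near-identical gene, of at least 95% identity over at least 200 bases, with which their reads could be confused.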

How the data were processed

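RNA of eosinophils in 18 libraries was measured by CEL-Seq2. The authors state that reads were mapped to GRCm38 with TopHat2 2.1.0 and counted per gene with HTSeq 0.6.1 in its union mode, and the counts were deposited per library. They also name fastp 0.20.1 and STAR 2.7.2a, but not for which libraries, nor whether molecular identifiers were collapsed. In the set with *E. coli* and IFN-γ 18.9% to 37.6% of reads per library were set aside as outside genes and 1.84% to 2.27% as ambiguous, and the files of the IL-4 set have no such lines.

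From these counts edgeR 4.0.16 in R 4.3.3 gave TMM-normalized CPM and, per set, a quasi-likelihood fit with one mean per group after filterByExpr, with Benjamini-Hochberg adjustment and no fold threshold for a call. The biological coefficient of variation was 0.118 in the former set and 0.182 in the latter. The SE given with a log2 fold change was derived from the test, as the absolute fold change divided by the square root of the quasi-likelihood F statistic. DESeq2 1.42.0 served as an alternative, limma 3.58.1 was present as a dependency of edgeR and not called, and blast 2.17.0 found near-identical genes. The steps were tested on simulated data. The other alternatives were other size factors, no filter or a stricter one on low counts, a factor of 2 as threshold, fits of the 6 libraries compared only, each library left out in turn, counts corrected for the ceiling of identifiers and the replicate number as a block. A fit of the 9 stimulated libraries without that block was added after the data were seen. Shares of all tested genes called are given only for the main fit at an adjusted p under 0.05, and for none of the alternatives. Of the genes in the files, 98.3% and 99.7% were found in the gene annotation GENCODE M21.

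The members and lists were chosen with earlier results of these data known. Libraries' values are printed for the members with the 4 largest rises and the 4 largest falls among those called with each stimulus, for members called in opposite directions with different stimuli, and for *Ifit2* and *Ifit3*, which the study's paper names. Lists of ligands, receptors and kinases, sensors and adaptors, transcription factors, inhibitors, further interferon-stimulated genes, IFN-γ targets and markers of cell types were written by hand from general knowledge.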

Additional observations from a re-analysis of the deposited data

Results flagged for a closer look

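The interaction of both stimuli was above what the sum of their separate log2 effects gives, a difference between groups, in 15 members. Its log2 values were 0.61 for *Oasl2*, 0.67 for *Isg15*, 0.68 for *Parp12*, 0.71 for *Trim30a*, 0.79 for *Xaf1*, 0.83 for *Oas3*, 0.84 for *Ifih1*, 0.85 for *Parp14*, 0.86 for *Isg20*, 0.96 for *Cmpk2*, 1.11 for *Tmem140*, 1.12 for *Mx1*, 1.17 for *Herc6*, 1.33 for *Ifit2* and 1.40 for *Trim30b*. B cell markers moved the same way. Macrophage and monocyte markers had a median log2 interaction of 0.73, with 1 of 12 called. Whether these cells have a part in it was not tested.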

How the results depend on the processing

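No alternative turned the direction of a called member. The balance of higher and lower counts between both and IFN-γ did turn in some alternatives. These include the replicate block and the factor of 2, given below, and the fit without IFN-γ library 1, given above. With a factor of 2 as threshold 8 members were lower with *E. coli*, 1 higher and 1 lower with IFN-γ, 2 higher and 1 lower with both, 2 higher and 0 lower with IL-4, 0 higher and 1 lower between both and IFN-γ, 14 higher and 0 lower between both and *E. coli*, 12 higher between IFN-γ and *E. coli*, and 5 had an interaction, since this threshold asks for larger changes. The shares of all tested genes at this threshold are not given, so these counts cannot be set against all genes. Leaving out each library in turn gave 28 to 33 members lower with *E. coli*, 9 to 11 higher and 6 to 9 lower with IFN-γ, 12 to 18 and 8 to 12 with both, 7 to 25 and 0 to 1 with IL-4, 1 to 5 and 2 to 4 between both and IFN-γ, 24 to 29 and 0 to 1 between both and *E. coli*, 23 to 28 higher between IFN-γ and *E. coli*, and 8 to 19 with an interaction. Without a filter on low counts 4 members were lower between both and IFN-γ, and *Ifit3b* was not lower between both and *E. coli* by DESeq2 (0 members) or in a fit of the 6 libraries compared (0); the cause was not tested. Counts corrected for the ceiling gave 31 members lower with *E. coli* and 19 with an interaction. Depth limits what can be said of the ligands, none of which had more than 3 counts in a library.

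With the replicate number as a replicate block in the 9 stimulated libraries, 3 members were higher and 5 lower between both and IFN-γ, 28 and 1 between both and *E. coli*, and 27 and 0 between IFN-γ and *E. coli*; the same 9 libraries without the block gave 2 lower between both and IFN-γ. Deviations of libraries with the same number had mean correlations of 0.0515 between *E. coli* and IFN-γ, 0.111 between *E. coli* and both and 0.166 between IFN-γ and both, above those of other numbers (-0.0260, -0.0540 and -0.0817). Single pairs ran from -0.0450 to 0.331 and not every library correlated best with its own number, so the libraries were taken to share only a number, since not every pair was above 0.1. No paired analysis with the unstimulated libraries was possible because these have letters.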
